A study of Mus musculus with 19 samples.

Results

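The genes described here were 40 members of the cell cycle and DNA replication machinery out of 56980 genes in the count table. They comprised 25 genes of mitosis and 15 genes of S phase, listed by name for the roles of their products and matched to the table by their mouse gene symbols. Bulk RNA-seq was done on CD11b+ cells taken from mouse brain by MACS, in which magnetic beads pull out cells that carry CD11b, an integrin found on microglia but also on monocytes and neutrophils. The study asked how *PARK7*/DJ-1 deficiency changes the response of microglia to a systemic inflammation. Of the 19 libraries, 5 came from *PARK7*/DJ-1 KO mice and 5 from wildtype mice that were given 4 μg LPS per g by the intraperitoneal route and sampled 6 h later. The remaining 5 KO and 4 wildtype mice received PBS and are called baseline. LPS is a cell wall component of Gram-negative bacteria that activates myeloid cells through a Toll-like receptor. All mice were males of 3 to 4 months from litters of heterozygous parents on a C57BL/6NCrl background, and each library was 1 mouse. The KO allele is a gene trap in *Park7* carried by every cell of the mouse, so effects through other cells cannot be told apart from those in the sorted cells. The olfactory bulb and the cerebellum were removed before dissociation.

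Cells enter S phase when E2F transcription factors are freed from the retinoblastoma proteins and switch on the genes of DNA synthesis. The MCM helicase, loaded onto origins with the licensing factor CDT1, then opens the DNA, and the sliding clamp PCNA holds the polymerases on it. The genes of mitosis are switched on later, by complexes that read CHR and CCAAT elements in their promoters, and their products are destroyed again when the cell divides. Microglia of the healthy adult brain divide rarely and renew themselves slowly.

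The total count per library ranged from 11936364 to 22788884, so 3 counts corresponded to 0.139 to 0.256 CPM, the counts scaled to the normalized library size. Such limits cover counting error only. As a check of the labels, *Park7* lay at 0.457 to 2.59 CPM at baseline and 1.69 to 5.38 CPM after LPS in KO libraries, against 20.6 to 25.2 CPM at baseline and 22.3 to 32.1 CPM after LPS in wildtype. The 9 microglial markers found summed to 25267 to 40571 CPM in the baseline libraries and to 10565 to 17005 CPM in the LPS libraries, without overlap, and the part of this shift in the LPS responses of the members was not tested. Oligodendrocyte markers summed to 6692 to 11235 CPM in 4 libraries, which were KO LPS replicate 1, KO baseline replicate 1, wildtype LPS replicate 2 and wildtype baseline replicate 2, and to at most 3915 CPM in the others. In bulk samples, fewer cells of a type and less RNA per cell cannot be told apart.

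The promoters of the members are shown first, since the classes are read by different factors. They were read from GRCm39 as the 300 bases from 250 before to 50 after the start of each gene's canonical transcript. The sequences were searched on both strands for CHR elements (TTTGAA or TTCGAA), for E2F sites, spelled either TTTGGCG, or with the middle letters changed TTTCGCG, or in the forms TTTCCCG and also TTTGCCG, and for CCAAT. A CHR element lay in 15 of 25 mitotic promoters (60%) and in 2 of 15 S-phase promoters (13.3%), against 18.7% of 21618 protein-coding promoters. E2F sites had the opposite distribution, with 3 of 25 mitotic promoters (12%) and 6 of 15 S-phase promoters (40%), against 8.06% of all. CCAAT was found in 76% of the mitotic and 53.3% of the S-phase promoters, against 39.9% of all, and CHR together with CCAAT in 56%, 13.3% and 8.23%. A match of letters is a description of the sequence and not a measured site.

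The 250 bases upstream of the start are given for 5 members, with the letters of CHR, E2F and CCAAT matches on either strand in capitals. They are *Cdkn3*, the mitotic member with the largest difference between genotypes after LPS, *Top2a* and *Cdk1*, which were called after LPS in wildtype and in KO, respectively, and *Mcm2* and *Mcm6*, subunits of the same helicase of which *Mcm2* fell after LPS.
Cdkn3 (chr14:46997654-46997903, GRCm39, plus strand): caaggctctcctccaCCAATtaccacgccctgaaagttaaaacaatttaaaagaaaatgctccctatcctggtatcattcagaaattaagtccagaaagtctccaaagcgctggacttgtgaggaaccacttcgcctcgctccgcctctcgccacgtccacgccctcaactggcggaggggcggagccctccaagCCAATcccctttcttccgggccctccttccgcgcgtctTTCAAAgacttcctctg
Top2a (chr11:98915042-98915291, GRCm39, minus strand): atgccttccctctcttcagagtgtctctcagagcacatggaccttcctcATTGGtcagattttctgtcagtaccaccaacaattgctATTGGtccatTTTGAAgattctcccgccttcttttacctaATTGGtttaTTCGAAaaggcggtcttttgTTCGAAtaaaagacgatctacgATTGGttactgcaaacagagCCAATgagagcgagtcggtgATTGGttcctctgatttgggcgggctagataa
Cdk1 (chr10:69188769-69189018, GRCm39, minus strand): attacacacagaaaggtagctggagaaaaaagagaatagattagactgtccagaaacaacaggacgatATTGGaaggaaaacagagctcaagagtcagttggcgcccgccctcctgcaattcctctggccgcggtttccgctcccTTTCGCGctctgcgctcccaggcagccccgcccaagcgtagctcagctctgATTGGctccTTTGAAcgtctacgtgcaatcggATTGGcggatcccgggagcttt
Mcm2 (chr6:88875763-88876012, GRCm39, minus strand): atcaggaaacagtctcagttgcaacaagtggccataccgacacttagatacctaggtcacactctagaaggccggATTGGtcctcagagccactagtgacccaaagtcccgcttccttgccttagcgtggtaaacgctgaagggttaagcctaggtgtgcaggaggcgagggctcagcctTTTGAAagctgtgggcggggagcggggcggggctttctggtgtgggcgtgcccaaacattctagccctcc
Mcm6 (chr1:128287453-128287702, GRCm39, minus strand): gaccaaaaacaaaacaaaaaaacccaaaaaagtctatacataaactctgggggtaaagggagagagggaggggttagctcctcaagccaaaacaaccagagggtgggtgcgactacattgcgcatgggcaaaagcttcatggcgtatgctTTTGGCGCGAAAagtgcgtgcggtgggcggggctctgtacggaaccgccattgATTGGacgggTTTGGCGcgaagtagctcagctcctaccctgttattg
The *Top2a* window held 3 CHR and 6 CCAAT matches and the *Cdkn3* window 1 and 2, whereas neither held an E2F match. *Mcm6* held 3 E2F matches, of which 2 overlapped on opposite strands, and *Mcm2* held none. The window of *Cdk1* was the only one of the 5 to hold all of the motifs.

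Levels were compared between genes per length, as the mean CPM per kb of the canonical transcript. In wildtype mice at baseline the 24 mitotic members that passed the filter on low counts had a median of 0.618 CPM per kb and the 15 S-phase members one of 3.07, against 4.01 for all genes tested. *Pcna*, the sliding clamp, was by far the highest member in each group, at 61.7 CPM per kb in wildtype at baseline, and *Ttk*, a kinase of the spindle checkpoint, was the lowest there, at 0.137. Over the mean of the 4 groups these were again the highest and the lowest member. Between them lay the MCM subunits at 2.55 to 8.25 CPM per kb. Among the mitotic members only *Cenpa*, the histone of centromeres, reached that range, with 5.42 CPM per kb, and *Top2a*, a topoisomerase that untangles sister chromatids, came next with 1.55. Rank alone does not separate neighbours in this order, since the spread between libraries was wide for low genes. The coefficient of variation over wildtype baseline libraries had a median of 29.2% for mitotic and 18.5% for S-phase members.

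**Figure D1:**
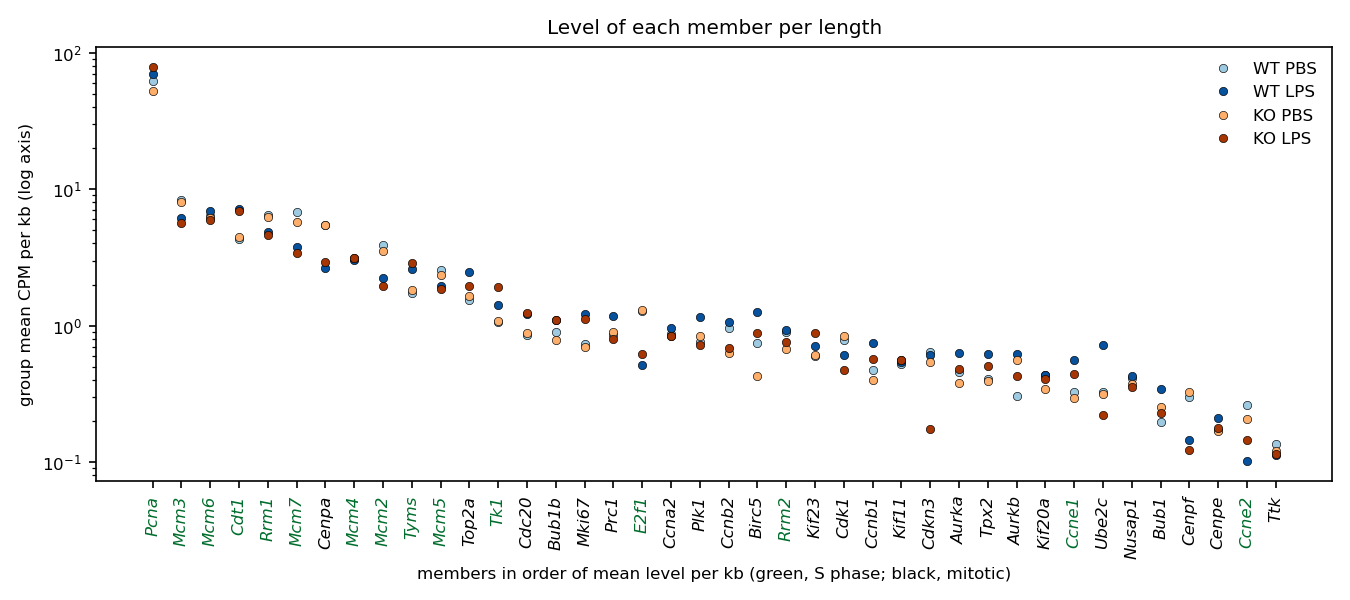
Mean CPM per kb of canonical transcript (log axis) of the 40 members in each of the 4 groups, ordered by their mean over groups; points are group means and name colours give the class. *Pcna* lay at 61.7 CPM per kb in wildtype at baseline, and most S-phase members lay above most mitotic members.

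*Ube2c*, the ubiquitin-conjugating enzyme of the anaphase-promoting complex, was removed by the filter and was not tested. It had 3, 2, 6, 5 and 2 counts in the KO libraries after LPS and 7, 14, 15, 11 and 6 in wildtype, which is 0.114 to 0.359 against 0.417 to 0.921 CPM, without overlap. At baseline its levels of 0.102 to 0.419 CPM in KO and 0.242 to 0.394 CPM in wildtype overlapped. The other 39 members were among the 18739 genes tested.

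The first question was how the members responded to LPS in each genotype. P-values are from edgeR's quasi-likelihood test over all 19 libraries with Benjamini-Hochberg adjustment over all genes tested. A gene was called with an adjusted p under 0.05 and a log2FC of at least 0.5 in size. LPS moved a large share of all genes: in wildtype 18.4% of the genes tested rose and 17.4% fell, and in KO 20.1% rose and 19% fell. Against this, 4 of 39 members rose and 6 fell in wildtype, and 5 rose and 8 fell in KO. The members called in both genotypes were *Mki67*, *Cdt1* and *Tyms*, which rose, and *Cenpa*, *Cenpf*, *Mcm2*, *Mcm7* and *E2f1*, which fell. The groups did not overlap for 10 of 39 members in wildtype, against 37.8% of all genes tested, and for 7 in KO, against 32.8%. The log2FC was positive for 19 of 24 mitotic members in wildtype and for 12 in KO, and negative for 8 of 15 S-phase members in wildtype and for 9 in KO. Members of a class can vary together between libraries, so these signs are not independent. The median log2FC of mitotic members was 0.30 in wildtype and 0.03 in KO, that of S-phase members -0.02 and -0.05, and that of all genes tested -0.06 and -0.01. Without KO baseline replicate 4 the mitotic median in KO was 0.26.

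**Figure D2:**
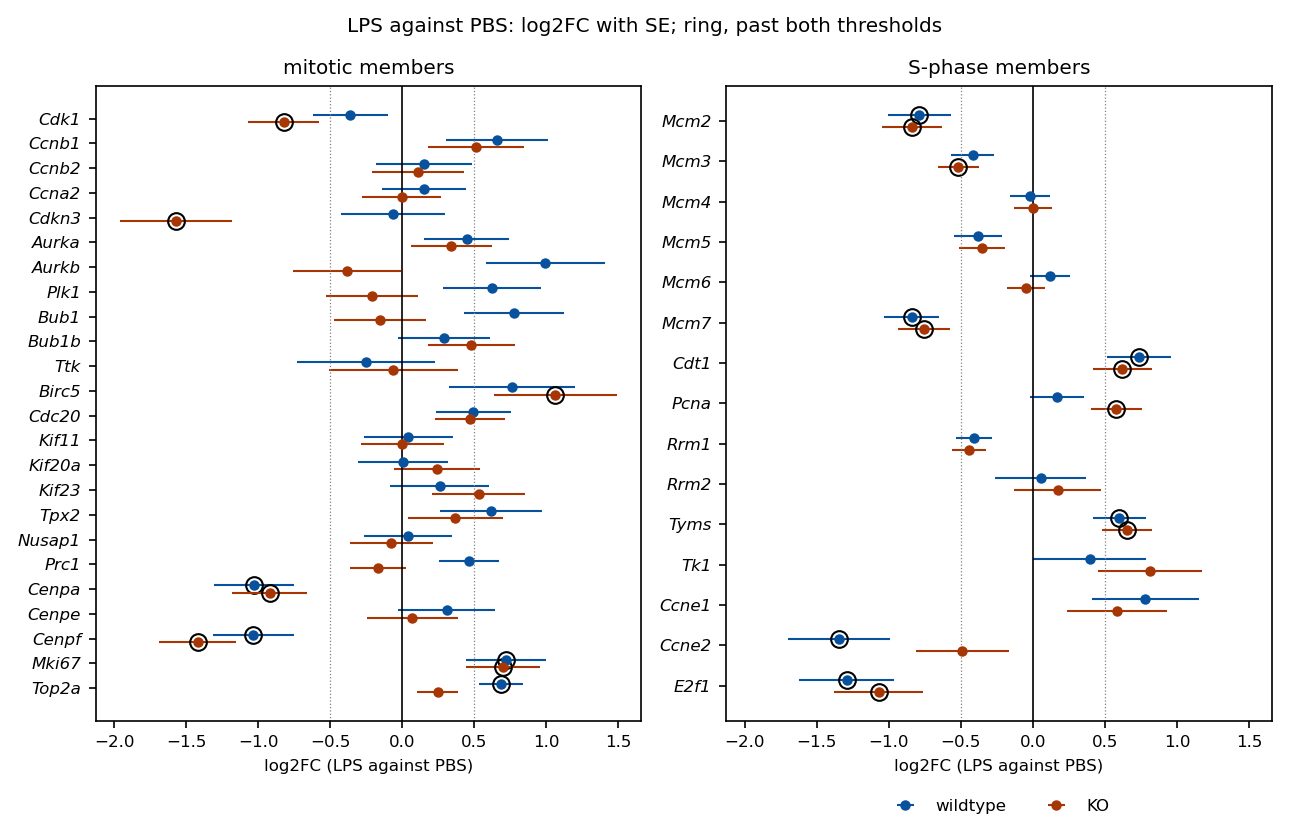
log2FC of LPS against baseline with its SE for 24 mitotic (left) and 15 S-phase members (right) in wildtype (blue) and KO (brown); rings mark members past both thresholds and dotted lines a log2FC of 0.5 in size. *Cenpa*, *Cenpf*, *Mcm2*, *Mcm7* and *E2f1* lay to the left in both genotypes, and *Cdkn3* in KO stood apart from its wildtype value.

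Among mitotic members, *Mki67* rose in both genotypes and *Top2a* in wildtype. *Mki67* encodes Ki-67, the coat of mitotic chromosomes that is used as a marker of dividing cells. It had 8.13, 5.64, 8.47 and 7.89 CPM in the wildtype libraries at baseline and 13, 9.47, 11.4, 12.5 and 15.7 CPM after LPS, so that every LPS library was above every baseline library. In KO it had 6.51, 5.36, 6.66, 10.6 and 6.54 CPM at baseline and 6.19, 8.92, 18.5, 15.2 and 9.09 CPM after LPS. The KO groups overlapped, with LPS replicates 1, 2 and 5 below KO baseline replicate 4, while LPS replicate 3 was the highest of all 19 libraries. The log2FC was 0.72 (SE 0.28, adjusted p = 0.0454) in wildtype and 0.70 (SE 0.26, adjusted p = 0.0341) in KO. Both calls were near the threshold and were lost in 11 of 19 and 6 of 19 refits without 1 library. In KO the log2FC was 0.47, and no longer called, without KO LPS replicate 3. Monocyte and neutrophil precursor marker sums were also highest of their group in KO LPS replicates 3 and 4. Monocyte markers summed to 471 and 408 CPM, against 198 to 245 in the other 3 libraries of that group, and neutrophil precursor markers to 889 and 833 against 424 to 473. The 2 lists share *Chil3*. Without *Chil3* and *Lcn2*, which other brain cells make too in inflammation, the precursor sums were 145 and 91.5 CPM against 26.9 to 55.7. Whether those cells contributed to the *Mki67* counts was not tested.

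*Top2a* rose in wildtype, from 7.98, 6.73, 9.66 and 8.20 CPM at baseline to 12.9, 13.2, 13.4, 12.9 and 12.96 CPM after LPS, and the 5 LPS libraries had a coefficient of variation of 1.86%. In KO it had 8.41, 9.15, 8.18, 10.1 and 7.51 CPM at baseline and 9.22, 9.43, 12.8, 11.7 and 8.23 CPM after LPS. These KO groups overlapped, and the KO LPS replicates 3 and 4 were again the highest. The log2FC was 0.68 (SE 0.15, adjusted p = 0.00130) in wildtype and 0.25 (SE 0.14, adjusted p = 0.176) in KO, and the interaction did not pass after adjustment (adjusted p = 1).

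Of the 3 centromere genes, 2 fell in both genotypes. *Cenpa* encodes the histone variant that marks the centromere. Its levels were 9.23, 3.94, 9.66 and 8.94 CPM at baseline and 3.82, 3.62, 3.25, 3.90 and 4.86 CPM after LPS in wildtype, where the low value of wildtype baseline replicate 2 lay among the LPS libraries. In KO they were 6.14, 6.84, 9.40, 8.75 and 9.13 CPM at baseline and 2.02, 4.23, 4.96, 4.64 and 5.41 CPM after LPS, without overlap. The log2FC was -1.03 (SE 0.28, adjusted p = 0.00516) in wildtype and -0.92 (SE 0.26, adjusted p = 0.00702) in KO. *Cenpf*, a large protein of the outer kinetochore, had 3.44, 3.58, 3.02 and 3.35 CPM at baseline and 1.67, 2.10, 1.02, 1.82 and 1.53 CPM after LPS in wildtype, and 3.74, 3.33, 4.78, 3.61 and 2.92 CPM at baseline and 0.562, 1.26, 1.73, 1.85 and 1.44 CPM after LPS in KO. Its groups did not overlap in either genotype, and its log2FC was -1.04 (SE 0.28, adjusted p = 0.00575) and -1.42 (SE 0.27, adjusted p = 0.000241). The kinetochore motor *Cenpe* did not follow them, with a log2FC of 0.31 in wildtype and 0.07 in KO, neither past the test.

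Of the 5 genes of mitotic cyclins, *Cdk1* and its phosphatase *Cdkn3*, none was called in wildtype, and *Cdk1* and *Cdkn3* but no cyclin fell in KO. *Cdk1*, the kinase that drives entry into mitosis, had 3.25, 3.28, 3.15, 4.66 and 4.11 CPM at baseline and 1.80, 1.54, 3.65, 1.96 and 1.44 CPM after LPS in KO. KO LPS replicate 3 was at the baseline level and the other 4 were below every baseline library. In wildtype the values were 4.01, 2.85, 3.88 and 2.98 CPM at baseline and 2.50, 2.50, 2.35, 2.54 and 3.50 CPM after LPS and overlapped. The interaction of genotype and LPS was -0.46 (SE 0.36, unadjusted p = 0.212), so the responses were not shown to differ. Its log2FC was -0.82 (SE 0.25, adjusted p = 0.00995) in KO and -0.36 (SE 0.26, adjusted p = 0.294) in wildtype, and the KO call was lost, at -0.80, when only the groups compared entered the fit. *Cdk1* overlaps Ank3 on the opposite strand and Gm47211 on its own, and the strand setting of the counting was not given in the sources used here.

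*Cdkn3* encodes a phosphatase that removes the activating phosphate of cyclin-dependent kinases. Its KO libraries fell from 11, 6, 10, 8 and 16 counts at baseline to 2, 4, 3, 4 and 2 after LPS, or 0.277 to 0.864 CPM at baseline and 0.112 to 0.229 CPM after LPS, without overlap. *Cdkn3* overlaps Cnih1 on the opposite strand. Wildtype libraries had 13, 10, 14 and 6 counts at baseline and 9, 7, 8, 13 and 9 after LPS, or 0.373 to 0.920 CPM at baseline and 0.460 to 0.845 CPM after LPS, which overlapped. The log2FC was -1.57 (SE 0.39, adjusted p = 0.00242) in KO and -0.06 (SE 0.36, adjusted p = 0.911) in wildtype. *Ccnb1*, a B-type cyclin and partner of CDK1, had 0.886, 0.970, 1.58 and 1.37 CPM at baseline and 1.13, 2.30, 1.57, 2.60 and 1.88 CPM after LPS in wildtype and 0.675, 1.02, 1.17, 1.15 and 1.03 CPM at baseline and 1.74, 0.572, 2.39, 1.34 and 1.15 CPM after LPS in KO, with overlap in both. Its log2FC of 0.66 (SE 0.35, adjusted p = 0.1496) and 0.51 (SE 0.33, adjusted p = 0.230) did not pass the test, nor did those of *Ccnb2* and *Ccna2*.

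Of the 7 genes of mitotic kinases and the passenger complex, *Birc5*, the survivin subunit of that complex, was called in KO. It had 0.430, 0.231, 0.457, 0.314 and 0.648 CPM at baseline and 0.506, 0.686, 1.44, 1.01 and 0.722 CPM after LPS there, and 0.626, 0.303, 1.18 and 0.807 CPM at baseline and 1.61, 0.526, 0.843, 1.43 and 1.79 CPM after LPS in wildtype, so the groups overlapped in both genotypes. Its log2FC was 1.06 (SE 0.43, adjusted p = 0.0484) in KO and 0.76 (SE 0.44, adjusted p = 0.180) in wildtype, and the KO call was lost in 12 of 19 refits without 1 library. In wildtype the log2FC of *Aurkb*, the kinase of the same complex, was 0.99 (SE 0.41, adjusted p = 0.0621), and that of *Bub1*, a kinase of the spindle checkpoint, 0.77 (SE 0.35, adjusted p = 0.0818). Neither passed the adjusted threshold. The log2FC of the spindle kinase *Aurka* was 0.45 in wildtype and 0.34 in KO, that of the checkpoint protein *Bub1b* 0.29 and 0.48, and that of *Ttk* -0.25 and -0.06, none past the test. *Ttk*, the lowest member, had 0.365, 0.485, 0.657 and 0.435 CPM at baseline and 0.239, 0.460, 0.482, 0.650 and 0.171 CPM after LPS in wildtype and 0.368, 0.139, 0.559, 0.629 and 0.432 CPM at baseline and 0.281, 0.171, 0.359, 0.783 and 0.433 CPM after LPS in KO, which overlapped. None of the 6 motor and spindle genes (the kinesins *Kif11*, *Kif20a* and *Kif23* and the microtubule-binding *Tpx2*, *Nusap1* and *Prc1*) nor *Cdc20*, the activator of the anaphase-promoting complex, was called in either genotype. Their log2FC ranged from -0.17 (*Prc1* in KO) to 0.61 (*Tpx2* in wildtype).

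**Figure D3:**
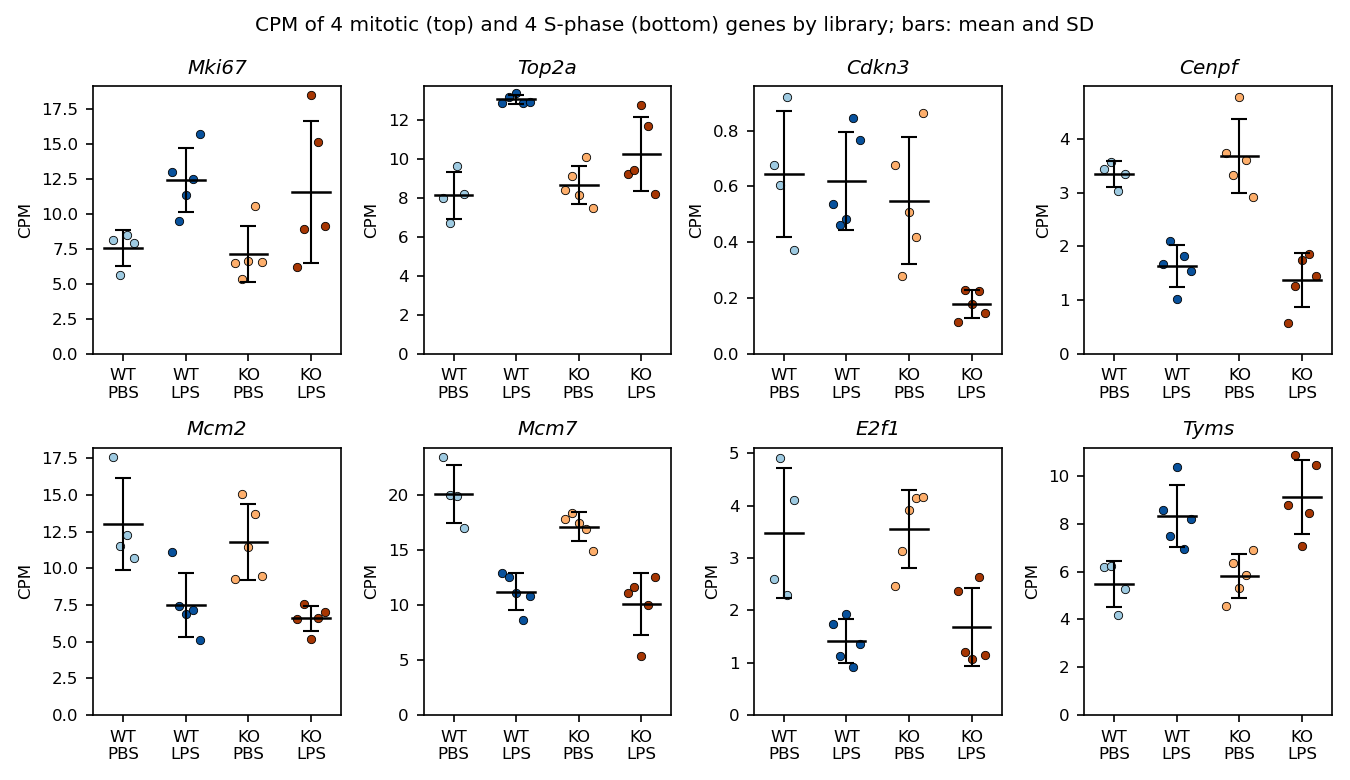
CPM of 4 mitotic (*Mki67*, *Top2a*, *Cdkn3*, *Cenpf*) and 4 S-phase members (*Mcm2*, *Mcm7*, *E2f1*, *Tyms*) in each of the 19 libraries by group; points are libraries, horizontal lines group means and error bars the SD. *Cenpf* was below its baseline libraries in all 10 LPS libraries, and *Cdkn3* was at 0.112 to 0.229 CPM in KO after LPS.

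Among S-phase members, the MCM helicase did not move as 1 unit although its 6 subunits form a single ring. *Mcm2* fell, from 17.6, 11.5, 12.3 and 10.7 CPM at baseline to 11.1, 7.43, 6.87, 7.15 and 5.12 CPM after LPS in wildtype and from 9.27, 15.1, 11.5, 13.7 and 9.45 to 6.58, 7.54, 5.204, 6.60 and 7.00 CPM in KO. The KO groups did not overlap, and in wildtype LPS replicate 1 alone reached the baseline range. Its log2FC was -0.79 (SE 0.22, adjusted p = 0.00633) in wildtype and -0.84 (SE 0.21, adjusted p = 0.00239) in KO. *Mcm7* fell likewise, from 23.5, 20.1, 19.97 and 17.0 to 12.9, 12.6, 11.1, 8.65 and 10.8 CPM in wildtype and from 17.9, 18.4, 17.5, 17.0 and 14.96 to 11.1, 11.7, 5.38, 10.01 and 12.6 CPM in KO, without overlap in either. The log2FC of *Mcm7* was -0.84 (SE 0.19, adjusted p = 0.00142) and -0.76 (SE 0.18, adjusted p = 0.00202). *Mcm7* shares its locus with 3 microRNA genes on its own strand and with Ap4m1 and Cops6 on the other.

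*Mcm3* passed the adjusted threshold in both genotypes but the fold threshold in KO only, with a log2FC of -0.42 (SE 0.15, adjusted p = 0.0295) in wildtype and -0.52 (SE 0.14, adjusted p = 0.00514) in KO. It had 56.3, 36.9, 48.4 and 37.7 CPM at baseline and 36.7, 32.5, 33.4, 34.8 and 30.1 CPM after LPS in wildtype, which did not overlap, and 41.5, 57.6, 44.3, 41.7 and 34.2 CPM at baseline and 28.9, 37.0, 26.6, 30.0 and 30.5 CPM after LPS in KO, which overlapped. The KO value dropped under the fold threshold without any 1 of 4 libraries, to -0.40 without KO baseline replicate 2. *Mcm5* had 14.7, 10.1, 11.96 and 10.1 CPM at baseline and 8.59, 7.96, 10.6, 9.04 and 8.78 CPM after LPS in wildtype and 9.82, 12.3, 10.1, 12.9 and 9.35 CPM at baseline and 10.01, 9.49, 6.28, 8.05 and 8.81 CPM after LPS in KO. The groups overlapped in both genotypes. Its log2FC of -0.38 (SE 0.17, adjusted p = 0.0759) and -0.35 (SE 0.16, adjusted p = 0.0767) did not pass. The subunits *Mcm4* and *Mcm6* were level, with a log2FC between -0.05 and 0.12. *Cdt1*, which takes part in loading the helicase, rose in both genotypes. It had 12.1, 7.76, 10.4 and 7.70 CPM at baseline and 18.9, 11.6, 14.4, 17.4 and 16.7 CPM after LPS in wildtype and 9.39, 11.5, 10.2, 9.11 and 9.40 CPM at baseline and 10.9, 15.2, 11.8, 14.0 and 24.5 CPM after LPS in KO. Each genotype had an LPS library within its baseline range, and KO LPS replicate 5 was the highest of all. The log2FC was 0.74 (SE 0.22, adjusted p = 0.0111) in wildtype and 0.62 (SE 0.21, adjusted p = 0.0183) in KO, the latter 0.39 and no longer called without KO LPS replicate 5.

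KO LPS replicate 5 also stood out in *Pcna*. This gene had 70.0, 85.2, 76.1, 88.0 and 80.3 CPM at baseline and 84.1, 106, 109.5, 95.8 and 202 CPM after LPS in KO, and 105, 93.0, 81.3 and 95.5 CPM at baseline and 127, 96.1, 99.8, 107 and 96.5 CPM after LPS in wildtype. Its log2FC was 0.58 (SE 0.18, adjusted p = 0.0114) in KO and 0.17 (SE 0.19, adjusted p = 0.517) in wildtype. Without KO LPS replicate 5 the KO value was 0.31 and no longer called. Among the enzymes of nucleotide supply, *Tyms*, the thymidylate synthase, rose in both genotypes. It had 6.20, 6.24, 4.20 and 5.28 CPM at baseline and 8.59, 7.50, 10.4, 6.96 and 8.19 CPM after LPS in wildtype, and 4.54, 6.37, 5.33, 5.87 and 6.91 CPM at baseline and 8.77, 10.9, 7.06, 8.45 and 10.5 CPM after LPS in KO, with no overlap in either genotype. Its log2FC was 0.60 (SE 0.19, adjusted p = 0.0140) and 0.65 (SE 0.17, adjusted p = 0.00459), and the wildtype value was 0.49 and under the fold threshold without wildtype baseline replicate 3. *Pcna* and *Tyms* have pseudogene copies in the annotation, and how the counting split reads between copies was not tested. *Rrm1*, the large subunit of ribonucleotide reductase, went the other way by less than the fold threshold, with a log2FC of -0.41 (SE 0.13, adjusted p = 0.0122) in wildtype and -0.44 (SE 0.12, adjusted p = 0.00473) in KO. Its small subunit *Rrm2* and thymidine kinase *Tk1* did not pass the test.

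*E2f1*, the activator of the S-phase genes, fell in both genotypes. It had 2.61, 4.91, 2.30 and 4.10 CPM at baseline and 1.73, 1.12, 1.93, 0.910 and 1.36 CPM after LPS in wildtype, without overlap, and 2.46, 3.14, 3.91, 4.14 and 4.16 CPM at baseline and 2.36, 1.2, 1.08, 2.63 and 1.15 CPM after LPS in KO, where KO LPS replicate 4 reached the lower baseline values. Its log2FC was -1.29 (SE 0.33, adjusted p = 0.00365) in wildtype and -1.07 (SE 0.31, adjusted p = 0.00803) in KO. The E-type cyclins, partners of CDK2 at the start of S phase, differed from each other. *Ccne2* fell in wildtype, from 1.15, 0.849, 1.64 and 1.80 to 0.537, 0.658, 0.482, 0.455 and 0.512 CPM without overlap, and had 1.10, 1.02, 1.32, 1.36 and 0.594 CPM at baseline and 1.01, 0.4001, 0.957, 1.01 and 0.433 CPM after LPS in KO. Its log2FC was -1.35 (SE 0.35, adjusted p = 0.00430) in wildtype and -0.49 (SE 0.32, adjusted p = 0.235) in KO. The interaction of genotype and LPS was 0.86 for *Ccne2* (SE 0.48, unadjusted p = 0.0898), so the responses were not shown to differ. *Ccne1* had a log2FC of 0.78 (SE 0.37, adjusted p = 0.102) and 0.58 (SE 0.35, adjusted p = 0.183), which did not pass the test. Its levels were 0.261, 0.849, 0.920 and 0.683 CPM at baseline and 0.954, 0.723, 1.204, 1.89 and 1.02 CPM after LPS in wildtype and 0.307, 0.601, 0.711, 0.786 and 0.648 CPM at baseline and 1.01, 0.857, 0.837, 1.17 and 0.722 CPM after LPS in KO, with overlap in both.

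The second question was whether KO differed from wildtype. Here a gene was called with an unadjusted p under 0.05 and a log2FC of at least 0.5 in size, the thresholds used in the study. After LPS, 0 of 24 mitotic members were higher and 3 were lower in KO, against 0.544% and 0.763% of all genes tested, and 0 of 15 S-phase members were called by edgeR or by DESeq2, with 0 of them at an unadjusted p under 0.05. The 3 mitotic members were *Cdkn3*, *Plk1* and *Prc1*. When only the groups compared entered the fit, 1 mitotic member was called lower. None of them passed after adjustment (adjusted p = 1 for all members). The values of KO and wildtype did not overlap for *Cdkn3*, *Prc1* and *Top2a*, against 0.219% of all genes tested. The log2FC was negative for 18 of 24 mitotic members with a median of -0.28, and for 9 of 15 S-phase members with a median of -0.06, beside a median of 0.02 for all genes tested. Mitotic members varied together between libraries, so their signs are not independent. The mean log2 CPM of the mitotic class was 0.56 to 1.31 in KO and 1.07 to 1.33 in wildtype after LPS, which overlapped. At baseline 0 of 39 members were called by edgeR in either direction, with 0 at an unadjusted p under 0.05 and 1 by DESeq2 (*Aurkb*), against 0.224% of all genes tested higher and 0.576% lower, and no member was without overlap, against 0.971%. There the median was -0.03 for mitotic and -0.04 for S-phase members, and 0.002 for all genes.

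**Figure D4:**
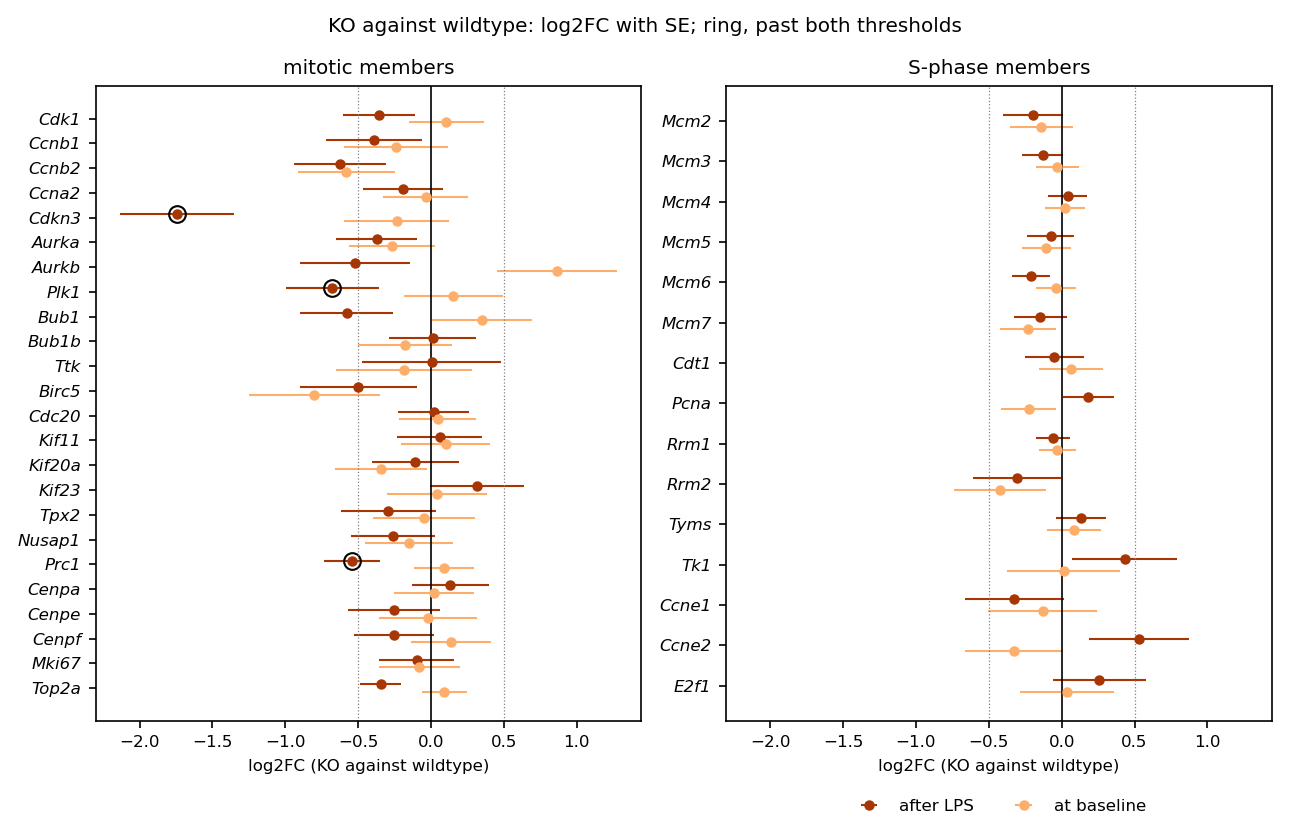
log2FC of KO against wildtype with its SE after LPS (brown) and at baseline (light orange) for 24 mitotic (left) and 15 S-phase members (right); rings mark members past both thresholds. After LPS, 18 of 24 mitotic members lay left of 0, with *Cdkn3* at -1.74, *Plk1* at -0.68 and *Prc1* at -0.54.

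*Cdkn3* showed the largest difference of all members after LPS, with a log2FC of -1.74 (SE 0.39, unadjusted p = 0.000274), on 2 to 4 counts per KO library and 7 to 13 per wildtype library. At baseline it was -0.24. Its call was kept in each refit without 1 library. *Plk1*, a kinase needed for spindle assembly, had 1.01, 1.31, 2.81, 2.13 and 0.794 CPM in KO and 1.91, 3.16, 1.69, 3.58 and 2.64 CPM in wildtype after LPS. KO LPS replicates 3 and 4 lay within the wildtype range and the other 3 below it. The log2FC of -0.68 (SE 0.32, unadjusted p = 0.0475) was close to the threshold, and it was lost in 15 of 19 refits without 1 library. *Prc1*, which crosslinks the microtubules of the central spindle, had 2.42, 2.74, 2.87, 2.18 and 1.66 CPM in KO and 2.92, 2.96, 3.49, 3.25 and 4.78 CPM in wildtype, and 2.49 to 2.88 and 2.30 to 2.79 CPM at baseline. Its log2FC after LPS was -0.54 (SE 0.19, unadjusted p = 0.0113), and -0.44 without KO LPS replicate 5 and -0.41 without wildtype LPS replicate 5, both under the fold threshold. *Top2a* differed by -0.35 (SE 0.14, unadjusted p = 0.0253), under the fold threshold, with all 5 KO libraries below all 5 wildtype libraries. The margins were narrow: the highest KO and lowest wildtype values were 2.87 and 2.92 CPM for *Prc1* and 12.80 and 12.87 CPM for *Top2a*. *Prc1* overlaps Rccd1 and *Plk1* overlaps Gm44985, each on the opposite strand. *Top2a* overlaps Gm23451 on its own strand and Gm55134 on the other.

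*Mki67* and *Cdk1* did not separate the genotypes after LPS, with a log2FC of -0.10 (SE 0.26, unadjusted p = 0.704) and -0.36 (SE 0.25, unadjusted p = 0.167). Without KO LPS replicate 3, in which *Cdk1* stood at 3.65 CPM against at most 1.96 in the other 4, *Cdk1* was lower in KO with a log2FC of -0.66 and would be called. The log2FC of *Pcna* was 0.18 (SE 0.18, unadjusted p = 0.315), and -0.09 without KO LPS replicate 5. At baseline the member nearest to the threshold was *Aurkb*, with 0.798, 0.970, 1.22, 1.62 and 0.918 CPM in KO and 0.834, 0.545, 0.788 and 0.248 CPM in wildtype and a log2FC of 0.86 (SE 0.41, unadjusted p = 0.05005). It was called in 7 of 19 refits without 1 library. In the same comparison *Birc5* had -0.80 (SE 0.45, unadjusted p = 0.0932), and the passenger complex genes therefore had opposite signs.

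The interaction term compared the LPS responses of KO and wildtype. By edgeR 0 of 39 members passed after adjustment, as did 0% of the genes tested, and DESeq2 also called 0 members. At an unadjusted p under 0.05 there were 4 members, all mitotic and all with a lower response in KO, against 0.961% of all genes tested. They were *Cdkn3* at -1.51 (SE 0.53, unadjusted p = 0.0107), *Aurkb* at -1.38 (SE 0.56, unadjusted p = 0.0231), *Prc1* at -0.63 (SE 0.28, unadjusted p = 0.0372) and *Top2a* at -0.44 (SE 0.21, unadjusted p = 0.0493). No S-phase member was among them. The interaction was negative for 18 of 24 mitotic members with a median of -0.13 and for 6 of 15 S-phase members with a median of 0.03, beside a median of 0.009 over all genes. Since mitotic members varied together between libraries, these signs are not independent.

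The classes were also set side by side as the mean log2 CPM of their members in each library. For the mitotic class it was lowest, median and highest at 0.68, 0.99 and 1.18 in wildtype at baseline, 1.07, 1.17 and 1.33 in wildtype after LPS, 0.77, 0.93 and 1.22 in KO at baseline and 0.56, 0.75 and 1.31 in KO after LPS. The KO LPS group was thus spread over 0.75 on the log2 scale and wildtype LPS over 0.26. KO LPS replicate 3 was the highest of its group for 13 of 24 mitotic members and replicate 4 for 7, while replicate 1 was the lowest for 11 and replicate 5 for 9. Among S-phase members of the KO LPS group, replicate 3 was the highest for 3 of 15 and the lowest for 6. In the baseline groups, wildtype replicate 1 was the highest for 10 of 15 S-phase members and KO replicate 2 for 8. The mean of the S-phase class was 3.008 to 3.18 in wildtype at baseline and 2.81 to 3.007 after LPS, without overlap by a narrow margin, and 2.84 to 3.17 in KO at baseline and 2.83 to 2.97 after LPS, with overlap. The mitotic minus the S-phase mean was -2.13 ± 0.18 in wildtype at baseline and -1.71 ± 0.18 after LPS, and -2.07 ± 0.19 in KO at baseline and -2.02 ± 0.37 after LPS (mean ± SD, n = 4 and 5 in wildtype and 5 and 5 in KO). The wildtype ranges met at their ends, at -1.937 for the highest baseline and -1.942 for the lowest LPS library, and the KO ranges overlapped.

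**Figure D5:**
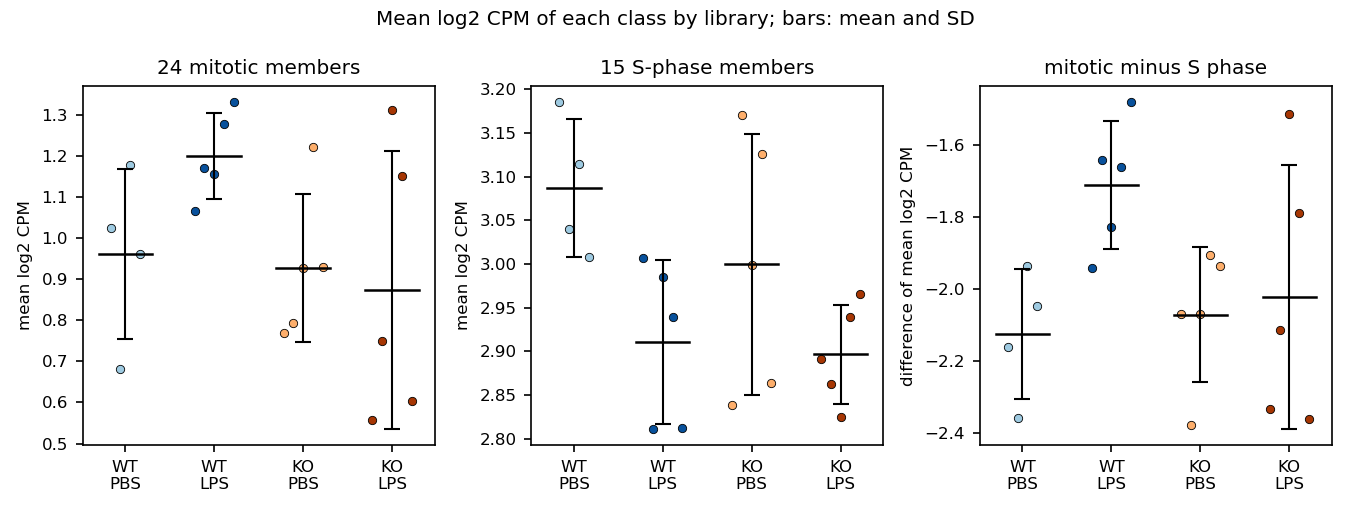
Mean log2 CPM of 24 mitotic members (left) and 15 S-phase members (middle) and their difference (right) in each library by group; points are libraries, horizontal lines group means and error bars the SD. The KO LPS libraries ran from 0.56 to 1.31 in the mitotic class and from 2.83 to 2.97 in the S-phase class.

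Markers of other cells varied between the same libraries. In the KO LPS group, replicates 3 and 4, at 1.31 and 1.15 on the mitotic mean, had monocyte marker sums of 471 and 408 CPM. Replicates 1, 2 and 5, at 0.56, 0.75 and 0.60, had 198, 245 and 229 CPM. All 5 wildtype LPS libraries had 313 to 455 CPM, and the baseline libraries 134 to 188 CPM but for 196 CPM in KO baseline replicate 2. Markers of border-associated macrophages summed to 213, 263, 373, 366 and 290 CPM in KO LPS replicates 1 to 5, also highest in replicates 3 and 4. In wildtype LPS libraries they summed to 217 to 434 CPM, lowest in replicate 5. The 8 markers of mature neutrophils summed to 284, 492, 662, 621 and 717 CPM in KO LPS replicates 1 to 5, highest in replicate 5. *Csf3r* made 423 CPM of the sum in replicate 5. *Csf3r* fell with LPS in both genotypes, with a log2FC of -0.64 and -0.55. Without it, a choice made with results of these data known, the sums were 94.6, 181, 364, 315 and 294 CPM. They were highest in replicates 3 and 4, with replicate 5 close to replicate 4, and 129 to 372 CPM in wildtype LPS libraries. After LPS, neutrophil precursor markers were mostly *Lcn2*, which other brain cells make too in inflammation, and without *Lcn2* and *Chil3* summed to 145 and 91.5 CPM in KO LPS replicates 3 and 4 against 26.9 to 55.7 in the other 3. In wildtype LPS replicates 1 to 5 that sum was 62.9, 111, 154, 159 and 46.9 CPM, and replicate 5, with the lowest sum of its group, had the highest mitotic mean of all libraries, 1.33. Among the granule genes of that list, *Ngp* had group means of 28.3 to 74.8 CPM, *Ltf* of 17.4 to 25.2 CPM, *Mpo* of 0.37 to 2.76 CPM and *Elane* of 0.34 to 0.92 CPM. KO baseline replicate 4, the highest of its group for 14 of 24 mitotic members, had the highest such sum at baseline, 163 CPM. Lymphocyte markers summed to 2.24 to 12.6 CPM, and neural progenitor markers, at 3.97 to 59.7 CPM, were highest, in each group, in the library with the most oligodendrocyte markers. The libraries richest in oligodendrocyte markers had the lowest mitotic mean of their group in 3 of 4 groups, the exception being wildtype LPS. KO LPS replicate 1 had the most oligodendrocyte (11235 CPM) and astrocyte markers (4820 CPM) of all libraries, and its share of mitochondrial and ribosomal RNA counts was 1.42% against 0.253% to 0.672% in the others. The part of these cells and of RNA composition in the mitotic counts was not tested.

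Around the members, 6 lists of further genes of the cell cycle were examined, of which 105 genes were tested. After LPS 23 rose and 20 fell in wildtype, and 24 rose and 23 fell in KO, with 20 higher and 18 lower in both. Among all genes tested the shares were 18.4% and 17.4% in wildtype and 20.1% and 19% in KO, so the pathway genes were near the background. The median log2FC over them was -0.10 in wildtype and -0.09 in KO. Among the 6 tested CDK inhibitors, 2 rose and 3 fell in each genotype. *Cdkn1a*, which encodes p21, rose from 22.1 ± 6.02 to 213 ± 35.7 CPM in wildtype and from 18.8 ± 4.92 to 234 ± 36.3 in KO (means ± SD, n = 4 and 5 in wildtype and 5 and 5 in KO). Its log2FC was 3.27 (SE 0.23, adjusted p = 3.73e-09) and 3.64 (SE 0.21, adjusted p = 2.81e-10). *Cdkn1b*, which encodes p27, fell by 1.02 and 1.09 on the log2 scale, with a mean of 101 ± 0.748 CPM at baseline and 49.9 ± 4.40 CPM after LPS in wildtype. The inhibitor *Cdkn2d* rose and *Cdkn1c* and *Cdkn2c* fell, of which the wildtype calls of *Cdkn1c* and *Cdkn2d* were lost in 11 of 19 and 1 of 19 refits without 1 library.

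In the list of D cyclins, CDKs and pocket proteins, the 3 retinoblastoma family genes fell in both genotypes, with a log2FC of -0.77 and -0.83 for *Rb1*, -1.09 and -1.15 for *Rbl1* and -1.20 and -1.43 for *Rbl2*. *Ccnd1*, the cyclin of G1 phase, fell by 1.03 in wildtype and 1.02 in KO, while its kinase *Cdk4* rose by 0.56 and 0.51, the KO call being lost in 5 of 19 refits. In the list of transcription factors, *E2f4* and *E2f5*, which act mainly as repressors, rose in both genotypes (0.72 and 0.69 for *E2f4*, 0.83 and 0.98 for *E2f5*), against the fall of *E2f1*. *Lin9*, a subunit of the complex that reads CHR elements, fell by 1.28 and 1.56. *Foxm1*, an activator of mitotic genes, was called in KO only, at 0.71 against 0.49 in wildtype, and its interaction did not pass.

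Of 33 tested origin and replisome genes, 4 rose and 8 fell in wildtype, against 18.4% and 17.4% of all genes tested, and 5 rose and 10 fell in KO, against 20.1% and 19%. *Orc2* of the origin complex rose by 0.93 and 1.12, *Pold2* of DNA polymerase delta by 0.92 and 1.10, and the flap nuclease *Fen1* by 0.98 and 0.80. DNA ligase *Lig1* fell by 1.47 and 1.48, *Gins4* of the active helicase by 0.93 and 0.89, and *Gmnn*, the inhibitor of CDT1, by 1.03 and 1.64. In the list of chromatin assembly, condensin and checkpoint genes, 6 of 33 rose and 3 fell in wildtype, beside the same 18.4% and 17.4% of all genes, and 4 rose and 4 fell in KO, beside 20.1% and 19%. The condensin genes *Ncaph* and *Ncapd2* fell, *Ncaph* by 1.73 and 1.82. *Kif2c* had the largest log2FC of the members and pathway genes. This kinesin depolymerizes spindle microtubules, and its mean was 0.886 ± 0.0847 CPM at baseline and 31.3 ± 6.06 CPM after LPS in wildtype and 1.19 ± 0.218 and 40.3 ± 9.76 CPM in KO. Its log2FC was 5.14 (SE 0.24) and 5.07 (SE 0.21), whereas no motor or spindle gene among the members was called.

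Of the 12 growth arrest and p53 target genes, 7 rose in wildtype and 8 in KO, against 18.4% and 20.1% of all genes tested, and *Sesn1* fell in both. *Gadd45b* rose by 3.43 and 3.72, *Sesn2* by 1.72 and 2.07, and *Myc*, a driver of growth in the same list, by 1.77 and 1.79. The median log2FC of this list was 0.95 and 1.13, against -0.06 and -0.01 over all genes. Between genotypes, 2 of 105 pathway genes were called after LPS, against 0.544% of all genes tested higher and 0.763% lower. They were *Cdk6* at 0.63 (SE 0.27, unadjusted p = 0.0280) and *Chaf1b* at 0.95 (SE 0.45, unadjusted p = 0.0496), both higher in KO. The *Cdk6* value was 0.17 without KO LPS replicate 3, and *Chaf1b* was lost in 15 of 19 refits without 1 library. At baseline 1 of 105 was called, against 0.224% of all genes higher and 0.576% lower. It was *Pole2*, lower in KO at -0.71 (SE 0.31, unadjusted p = 0.0345), a call lost in 6 of 19 refits.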

How the data were processed

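Per the study's methods, stranded total RNA libraries depleted of ribosomal RNA were sequenced as pairs of 75 bp, trimmed with Cutadapt, and aligned with STAR 2.7.9a to GRCm39 with the Ensembl 108 annotation. The values used were the raw counts per gene that the authors deposited, in 1 table of 19 libraries and with no normalization. The strand setting of the counting was not given in the sources used here, and 22 of 40 members overlap another annotated gene. Gene names came from GENCODE release 39 on the same build and were found for 56236 of 56980 identifiers.

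Groups were taken from the sample labels. Testing used edgeR 4.0.16 under R 4.3.3 (TMM, filterByExpr with a minimum count of 10 and total of 15, quasi-likelihood test, Benjamini-Hochberg adjustment over 18739 genes), with all 4 groups in 1 fit. SE is the log2FC divided by the square root of F. KO and wildtype were compared with the unadjusted threshold of the study. Class means used log2 CPM with a prior count of 2. Replicate libraries were distinct, with a chi-square per degree of freedom of at least 6.50 within groups. All 40 members were described by role, with values per library for those past a threshold and for a few fixed genes. The members, lists and tests were chosen with earlier results of these data known. DESeq2 1.42.0, its size factors, other filters, only the groups compared, a replicate block and leaving out each library were run as alternatives. The fit was tested on simulated counts for KO against wildtype after LPS. An adjusted p under 0.05 was reached by 45% of genes with a true fold of 0.5 and 49.0% with a fold of 2. For folds of 0.25 and 4 the shares were 67.8% and 87.5%, and for unchanged genes 0.0442%.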

Additional observations from a re-analysis of the deposited data

Results flagged for a closer look

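Within groups of 4 or 5 libraries, 7 of 156 sets of values held 1 library far from the others by Dixon's test, where chance gives about 1 in 20. Cdk1 was at 3.65 CPM in KO LPS replicate 3 (1.44 to 1.96 in the other libraries of the group) and at 3.50 CPM in wildtype LPS replicate 5 (2.35 to 2.54). Wildtype baseline replicate 2 was low in Ccnb2, at 0.667 CPM against 1.77 to 1.80, and in Cenpa, at 3.94 CPM against 8.94 to 9.66. Mki67 was at 10.6 CPM in KO baseline replicate 4 against 5.36 to 6.66. Pcna was at 202 CPM in KO LPS replicate 5 against 84.1 to 110. Rrm1 was at 24.8 CPM in KO LPS replicate 3 against 21.0 to 21.4.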

How the results depend on the processing

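Some calls rested on few counts per library (2 to 16 for Cdkn3, 5 to 27 for Birc5). The labels do not say whether libraries shared a litter or a day. The p-values treat each library as independent, and any such sharing is not accounted for in them. In KO against wildtype at baseline, 1 mitotic member (Aurkb) was called higher, against 0, with DESeq2, with only the groups compared, with the replicate block and without mitochondrial and rRNA genes. For LPS in KO, the mitotic members called higher were 1 with at least 10 counts in every library and with only the groups compared, and 0 with no filter, against 2, and those called lower were 2 with only the groups compared, against 4. For LPS in wildtype, 1 mitotic member was called higher, against 2, with at least 10 counts in every library, with no filter and with the size factors of DESeq2, and 1 S-phase member, against 2, with no filter. After LPS, the mitotic members lower in KO were 1 with only the groups compared and 0 with an adjusted p, against 3. Leaving out the 4 libraries highest in oligodendrocyte markers, chosen after seeing the data, gave 1 mitotic member higher with LPS in wildtype, 2 mitotic members lower in KO at baseline, a median S-phase log2FC of -0.17 for LPS in wildtype (against -0.02), and -0.00288 for Top2a in KO against wildtype at baseline (against 0.09).

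Without 1 library at a time, S-phase members higher with LPS were 1 to 4 in KO (1 without KO LPS replicate 5) and 1 to 2 in wildtype (1 without wildtype baseline replicate 3), and mitotic members higher with LPS were 0 to 2 in KO (0 without KO LPS replicate 3) and 1 to 3 in wildtype. Mitotic members lower in KO after LPS were 1 to 5 (5 without KO LPS replicate 3), and at baseline 0 to 2 were lower (2 without wildtype baseline replicate 2) and 0 to 1 higher. The median mitotic log2FC for LPS in KO was -0.0257 to 0.262 (0.262 without KO baseline replicate 4). The log2FC of KO against wildtype after LPS was -0.333 to 0.0698 for Mki67 and -0.0922 to 0.287 for Pcna, that at baseline -0.27 to 0.00747 for Mki67, and that of Cdkn3 with LPS in wildtype -0.23 to 0.15. The cause was not tested. Libraries with the same replicate number did not deviate together in every pair: the correlation of their deviations from the group means was -0.57 to 0.30 between KO LPS and wildtype LPS and 0.03 to 0.54 between KO LPS and KO baseline. With the replicate block, 151 of the values of single genes kept their side of the threshold, 6 lost a call and 2 gained one.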
